A study of Mus musculus with 23 samples.

Results

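Neutrophil chemokines and the calprotectin genes were followed through tumors of 5 mouse cancer cell lines and through cancer-associated fibroblasts (CAFs) from 4 of them. The 10 genes were Cxcl1, Cxcl2, Cxcl3, Cxcl5, Cxcr2, Csf3, Csf3r, S100a8, S100a9 and Il1b, out of 24940 gene symbols. They were picked by symbol, with no cutoff on their values, but with earlier results of these data known. Where a symbol had several transcripts, the most abundant one on average in the table at hand stood for it, and all 10 genes were listed in both tables.

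The tumors came from B16-F10 melanoma (B16), EO771.LMB breast cancer (EO771), LL/2 lung cancer (LL2), MC38 colon cancer and Pan02 pancreatic cancer cells, 3 tumors of each, all grown after 500000 cells had been placed under the flank skin of adult female C57BL/6 mice, the strain from which every line derives. No untreated or tumor-free tissue was measured, so each model was set against the other models. RNA came from fragments of whole tumors taken at the study's endpoint, with ulcerated tumors left out, and so mixes cancer cells, stroma and immune cells. CAFs were sorted as FAP+ cells after depletion of CD45-bearing leukocytes, with 2 libraries per model, from EO771, LL2, MC38 and Pan02 tumors but not from B16. The labels do not say which mice the replicates came from, so the p-values measure the spread between these samples, which may be technical in part. In bulk RNA, fewer cells of a type and less RNA per cell cannot be told apart.

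Neutrophils are drawn out of the blood by chemokines that carry the amino acids glutamate, leucine and arginine ahead of their CXC motif. In the mouse, Cxcl1, Cxcl2, Cxcl3 and Cxcl5 encode such ligands and Cxcr2 encodes the receptor they share on neutrophils. Csf3 encodes granulocyte colony-stimulating factor (G-CSF), which drives neutrophil production in the marrow through the receptor encoded by Csf3r. S100a8 and S100a9 encode the 2 subunits of calprotectin, which fills the neutrophil cytosol and is also made by monocytes and stressed keratinocytes, and Il1b encodes the cytokine interleukin-1 beta, which induces the chemokines in fibroblasts and epithelium.

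The 4 ligand genes lie close together on chromosome 5 in mm10, with Cxcl5 at chr5:90759298-90761625, Cxcl3 at chr5:90786101-90788093, Cxcl1 at chr5:90891245-90893115 and Cxcl2 at chr5:90903899-90905938, all on the plus strand. S100a8 (chr3:90669071-90670034, plus strand) and S100a9 (chr3:90692630-90695721, minus strand) are neighbors on chromosome 3. The RefSeq promoter table for GRCm38.p6 held 8 of the 10 genes, all but Cxcl5 and Csf3. The 120 bases before the start of Cxcl1 (chr5:90891125-90891244), Cxcl2 (chr5:90903779-90903898) and Cxcl3 (chr5:90785981-90786100) are shown because these 3 ligand genes differed in their order between models, and those of S100a8 (chr3:90668951-90669070, plus strand) and S100a9 (chr3:90695722-90695841, minus strand) because these subunits parted in EO771. Capitals mark matches on either strand to an NF-kB-type motif, which is GGGA, any 1 base and TTTCC, and to the TATA motif TATAAA.
Cxcl1: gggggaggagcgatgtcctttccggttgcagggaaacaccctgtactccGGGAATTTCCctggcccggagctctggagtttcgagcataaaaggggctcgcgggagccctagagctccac
Cxcl2: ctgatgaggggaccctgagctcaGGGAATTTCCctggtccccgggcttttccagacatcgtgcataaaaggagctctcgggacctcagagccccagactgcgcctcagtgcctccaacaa
Cxcl3: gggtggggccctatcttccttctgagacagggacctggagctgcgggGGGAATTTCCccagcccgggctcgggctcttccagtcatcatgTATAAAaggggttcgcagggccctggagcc
S100a8: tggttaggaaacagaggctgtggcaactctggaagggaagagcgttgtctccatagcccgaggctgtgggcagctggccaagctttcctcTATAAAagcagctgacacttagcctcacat
S100a9: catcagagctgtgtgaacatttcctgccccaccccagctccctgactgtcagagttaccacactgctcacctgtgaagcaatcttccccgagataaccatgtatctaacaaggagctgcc
The NF-kB-type match began at -71 in Cxcl1, -97 in Cxcl2 and -73 in Cxcl3, counted back from the start, and the same letters, GGGAATTTCC, stood there in all 3. None of Cxcr2, Csf3r, S100a8, S100a9 and Il1b held it between 250 bases before and 50 bases after the start, and 0.411% of all 32851 promoters did. TATAAA was present in Cxcl3, S100a8, S100a9 and Il1b, in S100a9 at the start itself and so outside the stretch shown, against 13.6% of all promoters. An AP-1-type motif, TGANTCA, was searched in the same way and was present in none of the 8 members, against 7.81% of all promoters. A match describes letters and not a bound factor.

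The tumor table held estimated counts per transcript, summing to between 10035173 and 21946486 per tumor over 1 transcript per gene, and levels are given in CPM, which are counts scaled to library size, here adjusted by TMM. The CAF table held RPKM, which are reads scaled to transcript length and library size, whose smallest steps corresponded to about 18530000 to 45720000 counting steps per library. Melanocyte markers summed to 10352 to 12593 RPKM in B16 tumors and to at most 14.2 RPKM in the other tumors. In the CAF libraries 9 fibroblast markers summed to between 1530.3 and 9733 RPKM. In EO771 and LL2 both CAF libraries lay above all 3 tumors in this sum, though the tables were normalized separately. In Pan02 the CAFs, at 2386 and 3880 RPKM, lay below the tumors, at 8166 to 9086 RPKM. In MC38 the CAFs, at 6551 and 1530 RPKM, overlapped the tumors, at 585 to 2477 RPKM. Markers of other cells were not absent from the CAF libraries. The 7 leukocyte markers summed to 57.2 and 68.7 RPKM in EO771 CAFs and to between 2.88 and 7.896 RPKM in the other CAFs, and Ptprc, which encodes CD45, was below 1 RPKM in all 8 libraries. The 6 epithelial markers summed to 836 and 1122 RPKM in Pan02, 494 and 501 RPKM in EO771, 205 and 211 RPKM in LL2 and 4.23 and 1.78 RPKM in MC38 CAFs. Libraries of 1 model lay closer to each other than to any library of another model in both tables.

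All 10 genes differed between the tumor models, with LL2 tumors at the high end and B16 tumors at the low end. Each passed the F test of edgeR's quasi-likelihood fit at an adjusted p under 0.05, as did 91.1% of the 15722 genes tested, so that count alone does not set them apart. Against the mean of the other 4 models, 10 of 10 were higher in LL2, where 23.3% of all genes were, and 10 of 10 were lower in B16, where 31.6% were. None was higher in B16 (31.9% of all genes) or lower in LL2 (18.9%). In Pan02, 7 were higher (32.5%) and Cxcl1 and Csf3 were lower (28.1%). In EO771, 5 were lower (27.0%) and none was higher (27.2%), and in MC38 Cxcl1 alone was higher (27.0%) and none was lower (24.4%). The median log2 difference over the 10 genes was 3.64 in LL2, 1.5 in Pan02, 0.09 in MC38, -1.91 in EO771 and -4.13 in B16, while the median of all genes lay between -0.04 and 0.05 in each. Csf3 reached the filter on low counts through LL2 tumors alone, so its calls in LL2, B16 and Pan02 are not read as support. The counts and medians above include it. The 5 contrasts use the same 15 tumors, so a high value in LL2 lowers the contrast of every other model.

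**Figure D1:**
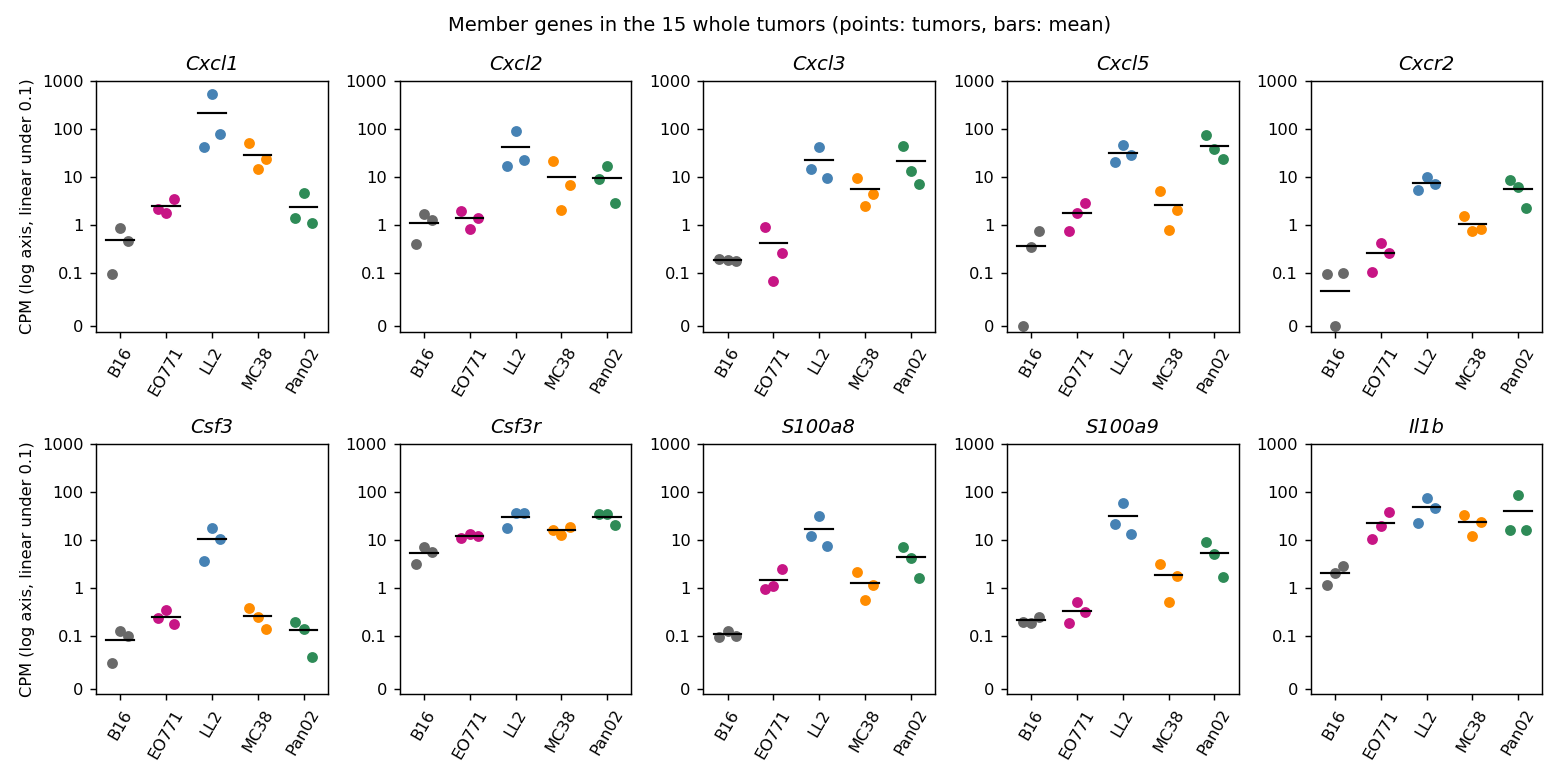
Level of each gene in CPM (log axis, linear under 0.1) in the 3 tumors of each model, as points, with the mean as a bar. LL2 tumors lie high for all 10 genes, Pan02 tumors overlap them for Cxcl2, Cxcl3, Cxcl5, Cxcr2, Csf3r and Il1b, and B16 tumors have the lowest mean for every gene.

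Among the ligands, Cxcl1 had the highest mean in LL2 and MC38 tumors and, at a far lower level, in EO771 tumors. It reached 42.7, 533 and 77.8 CPM in LL2 tumors and 49.97, 15.02 and 23.3 CPM in MC38 tumors. The remaining models were far lower, at 2.12, 1.74 and 3.49 CPM in EO771, 1.37, 4.66 and 1.08 CPM in Pan02 and 0.0982, 0.8704 and 0.474 CPM in B16. LL2 replicate 2 stood well above its 2 companions, and LL2 and MC38 tumors overlapped each other but none of the other 9. The log2 difference from the mean of the other models was 6.15 ± 0.57, adjusted p = 1.96e-06 in LL2 and 2.54 ± 0.6, adjusted p = 0.00319 in MC38 (± SE, edgeR). Without LL2 replicate 2 the LL2 value was 4.29 ± 0.42, adjusted p = 1.02e-05, and without MC38 replicate 1 the MC38 value was 1.91 ± 0.69, adjusted p = 0.0408. Pan02 was lower at -2.06 ± 0.84, adjusted p = 0.0478, a call close to the threshold. It was lost when B16 replicate 2 or 3, any EO771 tumor, MC38 replicate 1 or 3 or Pan02 replicate 1 or 3 was left out, at adjusted p values up to 0.157. Without Pan02 replicate 2 the value was -2.96 ± 1.05, adjusted p = 0.0311. EO771 was at -1.95 ± 0.85, adjusted p = 0.0672, and it passed the threshold in DESeq2 at an adjusted p of 0.0232 and in edgeR without any 1 of the LL2 tumors, at up to 0.0478.

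Cxcl2 was higher in every LL2, MC38 and Pan02 tumor than in any EO771 or B16 tumor. It stood at 16.8, 89.2 and 22.9 CPM in LL2, 21.5, 2.06 and 6.71 CPM in MC38 and 8.92, 16.8 and 2.94 CPM in Pan02 tumors. EO771 tumors had 1.96, 0.807 and 1.39 CPM and B16 tumors 0.393, 1.68 and 1.25 CPM. The first 3 models overlapped one another, and the last 2 overlapped each other. LL2 was higher than the other models by 3.59 ± 0.56, adjusted p = 1.85e-04 (log2), and by 2.48 ± 0.59, adjusted p = 0.00627 without LL2 replicate 2, and B16 (-2.92 ± 0.85, adjusted p = 0.00873) and EO771 (-2.53 ± 0.83, adjusted p = 0.0201) were lower. Without EO771 replicate 2 or 3 the EO771 call was lost, at adjusted p = 0.0816 and 0.066. MC38 and Pan02 were not past the threshold, at 0.99 ± 0.62, adjusted p = 0.201 and 0.87 ± 0.63, adjusted p = 0.245, and the MC38 value was -0.24 without MC38 replicate 1.

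Cxcl3 and Cxcl5 were shared by LL2 and Pan02. For Cxcl3 the Pan02 tumors had 43.7, 13.6 and 6.99 CPM and the LL2 tumors 14.8, 42.1 and 9.45 CPM, against 9.75, 2.48 and 4.42 CPM in MC38. EO771 tumors had 0.9003, 0.0849 and 0.261 CPM and B16 tumors 0.196, 0.187 and 0.175 CPM, from counts of 17, 1 and 3 in EO771 and 2, 3 and 3.5 in B16. Pan02, LL2 and MC38 tumors overlapped one another, and Pan02 and LL2 rose, by 3.53 ± 0.54, adjusted p = 7.38e-05 and 3.59 ± 0.54, adjusted p = 1.29e-04 (log2). They were at 2.44 ± 0.54, adjusted p = 0.00169 without Pan02 replicate 1 and 2.72 ± 0.57, adjusted p = 0.00278 without LL2 replicate 2. EO771 (-3.34 ± 0.87, adjusted p = 0.00564) and B16 (-4.88 ± 0.97, adjusted p = 6.40e-04) fell, with EO771 at -4.74 ± 1.22, adjusted p = 0.0077 without its replicate 1. MC38 was at 1.11 ± 0.6, adjusted p = 0.138, and passed the threshold without Pan02 replicate 1 at 1.37 with adjusted p = 0.0371.

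Cxcl5, the ligand known from epithelium as LIX, was the only 1 of the 10 for which Pan02 had the highest tumor mean. It measured 74.04, 37.7 and 23.5 CPM in Pan02 and 20.4, 47.3 and 28.7 CPM in LL2 tumors. In MC38 tumors it measured 5.102, 0.7696 and 2.09 CPM, in EO771 tumors 0.768, 1.78 and 2.83 CPM and in B16 tumors 0, 0.342 and 0.748 CPM, with 1 B16 tumor at 0 counts. The Pan02 and LL2 tumors overlapped, and all 6 were above all other tumors. Pan02 was higher by 3.98 ± 0.44, adjusted p = 4.61e-06 and LL2 by 3.37 ± 0.45, adjusted p = 4.83e-05 (log2), and Pan02 by 3.39 ± 0.46, adjusted p = 4.02e-05 without its replicate 1. The B16 value was -5.31 ± 1.05, adjusted p = 0.00102 without the B16 tumor with the highest level, replicate 3. B16 (-4.37 ± 0.77, adjusted p = 2.29e-04) and EO771 (-1.87 ± 0.64, adjusted p = 0.0237) were lower, and the EO771 call was lost without B16 replicate 3 or EO771 replicate 1 or 2, at adjusted p up to 0.118. In MC38, where the fit gave -1.1 ± 0.58, adjusted p = 0.13, leaving out replicate 1 brought the gene past the threshold at -2.02 with an adjusted p of 0.0295.

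The make-up of the ligands differed between MC38 and Pan02 tumors, whose totals overlapped. Per transcript length, the 4 ligands summed to 87.8, 719 and 131 RPKM in LL2, 97.8, 56.8 and 25.01 RPKM in Pan02 and 85.7, 20.8 and 36.5 RPKM in MC38 tumors. EO771 tumors summed to 5.42, 3.76 and 6.97 RPKM and B16 tumors to 0.663, 2.87 and 2.29 RPKM. All LL2 tumors lay above every other tumor, apart from Pan02 replicate 1, which lay above LL2 replicate 1. Cxcl1 made up 61.8 to 76.7% of the sum in MC38, 51.6 to 78.7% in LL2 and 41.4 to 53.1% in EO771 tumors, but 1.48 to 8.69% in Pan02 tumors. There Cxcl5 held 40.3 to 56.9% and Cxcl3 23.6 to 44.2%. In all 3 Pan02 tumors the Cxcl1 share was below that of all 12 other tumors. The difference in shares was not tested beyond the fits of the single genes. All 9 fibroblast markers and all 5 tested epithelial markers were higher in Pan02 tumors, with fibroblast sums of 8166 to 9086 RPKM against at most 2672 RPKM elsewhere, and their part in the make-up was not tested.

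**Figure D2:**
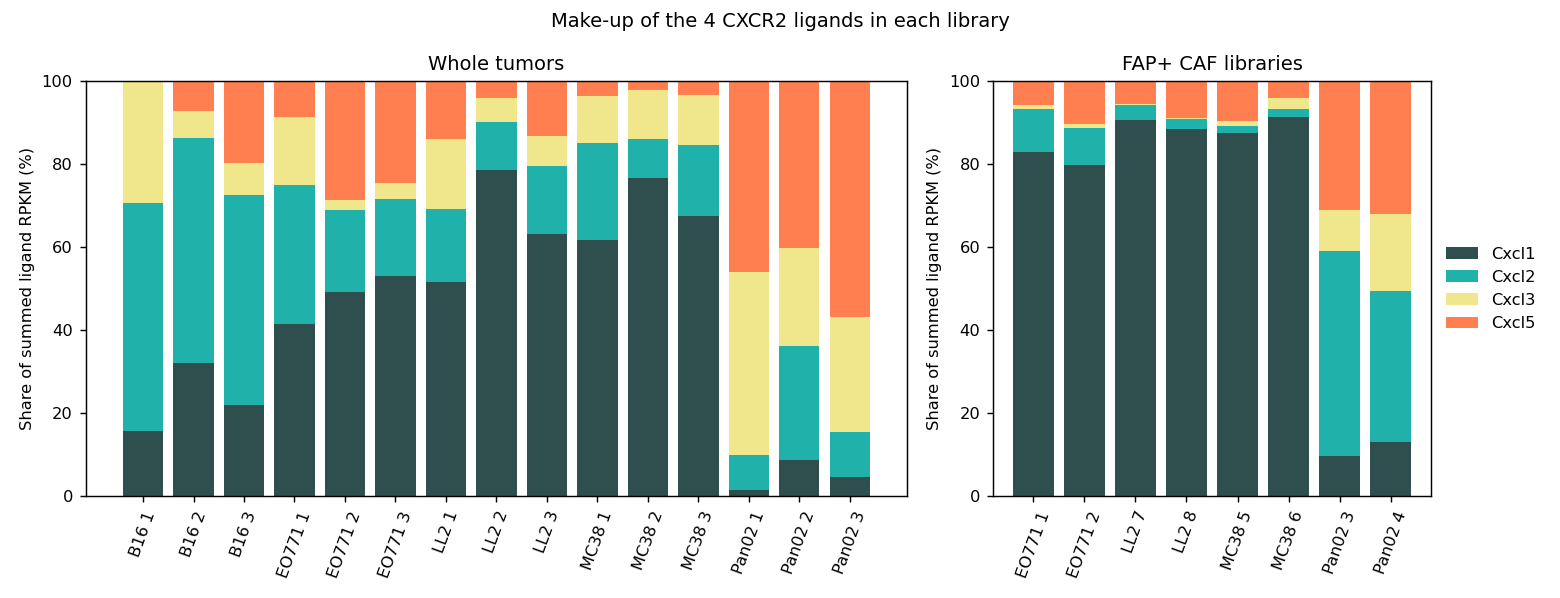
Share of each of the 4 CXCR2 ligands in their summed RPKM (%), as stacked bars from 0 to 100, for 15 tumors on the left and 8 CAF libraries on the right. Pan02 stands apart on both sides, with Cxcl1 at 1.48 to 8.69% in its tumors and 9.75 to 13.1% in its CAFs. B16 bars rest on sums of at most 2.87 RPKM.

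The receptor Cxcr2 ranked the models by mean in the same order as Cxcl3, Csf3r, S100a9 and Il1b. It stood at 5.33, 9.88 and 7.14 CPM in LL2 and 8.57, 6.34 and 2.22 CPM in Pan02 tumors. MC38 tumors had 1.52, 0.745 and 0.822 CPM, EO771 tumors 0.106, 0.425 and 0.261 CPM and B16 tumors 0.0982, 0 and 0.0998 CPM, the last from 0 to 2 counts. The LL2 and Pan02 tumors overlapped and lay above every MC38, EO771 and B16 tumor, and those 3 models did not overlap one another. LL2 was higher by 3.7 ± 0.38, adjusted p = 5.61e-06 and Pan02 by 3.22 ± 0.39, adjusted p = 1.07e-05 (log2). EO771 (-2.4 ± 0.65, adjusted p = 0.00682) and B16 (-4.67 ± 0.73, adjusted p = 8.68e-05) were lower, while MC38 was at 0.16 ± 0.39, adjusted p = 0.758, and at -0.26 without MC38 replicate 1. Without B16 replicate 3 the B16 value was -5.3 ± 1.0101, adjusted p = 7.62e-04.

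G-CSF transcripts were highest in LL2 tumors. Csf3 was at 3.53, 17.6 and 10.6 CPM there, from 52, 336.5 and 169 counts. It was at 0.385, 0.248 and 0.137 CPM in MC38, 0.238, 0.3396 and 0.174 CPM in EO771, 0.195, 0.135 and 0.06003 CPM in Pan02 and 0.0491, 0.124 and 0.0998 CPM in B16 tumors. The LL2 tumors lay above all others, and no other neighbors in the order of means were separate. Because the gene passed the filter through LL2 alone, its differences are not given as tests. The other 4 models rested on 8, 5 and 2 counts in MC38, 4.5, 4 and 2 in EO771, 4, 2 and 1 in Pan02 and 0.5, 2 and 2 in B16 tumors.

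Its receptor Csf3r had model means between 5.26 and 30.2 CPM. It had 17.4, 36.8 and 36.4 CPM in LL2, 33.7, 35.2 and 20.2 CPM in Pan02 and 15.9, 12.6 and 18.8 CPM in MC38 tumors. EO771 tumors had 10.96, 13.4 and 11.8 CPM and B16 tumors 3.14, 7.06 and 5.59 CPM. B16 lay below all other tumors, EO771 overlapped MC38, and LL2 overlapped Pan02. LL2 was higher by 1.2 ± 0.23, adjusted p = 0.00102, Pan02 by 1.16 ± 0.23, adjusted p = 7.17e-04, and B16 was lower, at -1.93 ± 0.29, adjusted p = 6.81e-05 (log2).

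Calprotectin was highest in LL2 for both subunits. S100a8 was at 12.1, 30.9 and 7.45 CPM in LL2, 7.01, 4.25 and 1.56 CPM in Pan02 and 2.14, 0.546 and 1.13 CPM in MC38 tumors. EO771 tumors had 0.927, 1.06 and 2.396 CPM and B16 tumors 0.0982, 0.124 and 0.0998 CPM, the latter 1 or 2 counts each. S100a9 was at 21.5, 59.1 and 13.3 CPM in LL2, 9.06, 5.13 and 1.68 CPM in Pan02 and 3.13, 0.496 and 1.78 CPM in MC38 tumors. EO771 tumors had 0.185, 0.509 and 0.305 CPM and B16 tumors 0.196, 0.187 and 0.249 CPM. The LL2 tumors were above every other tumor for both subunits. Together with Csf3 this made 3 of the 10 genes for which all tumors of 1 model lay above all others, against 46.0% of all genes tested. LL2 was higher by 4.09 ± 0.44, adjusted p = 8.15e-06 for S100a8 and by 5.08 ± 0.47, adjusted p = 2.09e-06 for S100a9 (log2), and B16 was lower for both. Without LL2 replicate 2 the LL2 values were 3.31 ± 0.45, adjusted p = 1.34e-04 and 4.23 ± 0.47, adjusted p = 2.46e-05. Pan02 was higher by 1.63 ± 0.49, adjusted p = 0.0108 and 1.88 ± 0.52, adjusted p = 0.00693, but without Pan02 replicate 1 these became 1.03 with adjusted p = 0.135 and 1.2 with adjusted p = 0.105. LL2 replicate 3 carried keratinocyte markers at 73.3 RPKM in sum, against 1.91 and 3.67 RPKM in its 2 companions. It had the lowest S100a8 and S100a9 of the 3, and the part of these markers in those levels was not tested.

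The subunits kept close to each other in LL2, MC38 and Pan02 tumors and parted in EO771. Per transcript length, S100a8 over S100a9 was 6.71, 2.79 and 10.5 in the 3 EO771 tumors. It was 0.756, 0.701 and 0.753 in LL2, 0.918, 1.48 and 0.851 in MC38 and 1.04, 1.11 and 1.25 in Pan02 tumors. In B16 tumors it was 0.671, 0.894 and 0.536, from 1, 2 and 2 counts of S100a8 and 2, 3 and 5 of S100a9. Those are too few to show whether the subunits kept together. All 3 EO771 tumors thus lay above all tumors of the other models, from 17.5, 12.5 and 27.5 counts of S100a8 and 3.5, 6 and 3.5 counts of S100a9. S100a9 was lower in EO771 (-3.04 ± 0.81, adjusted p = 0.00612), whereas S100a8 was at -0.3 ± 0.63, adjusted p = 0.71, and the difference between these effects was not tested. The 12 keratinocyte markers summed to 71.1 to 79.98 RPKM in EO771 tumors, more than in every other tumor but LL2 replicate 3, at 73.3 RPKM. The list went both ways, since of the 8 tested 3 were higher and 3 lower in EO771, with a median log2 difference of -1.66. The part of these markers in the ratio was not tested.

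**Figure D3:**
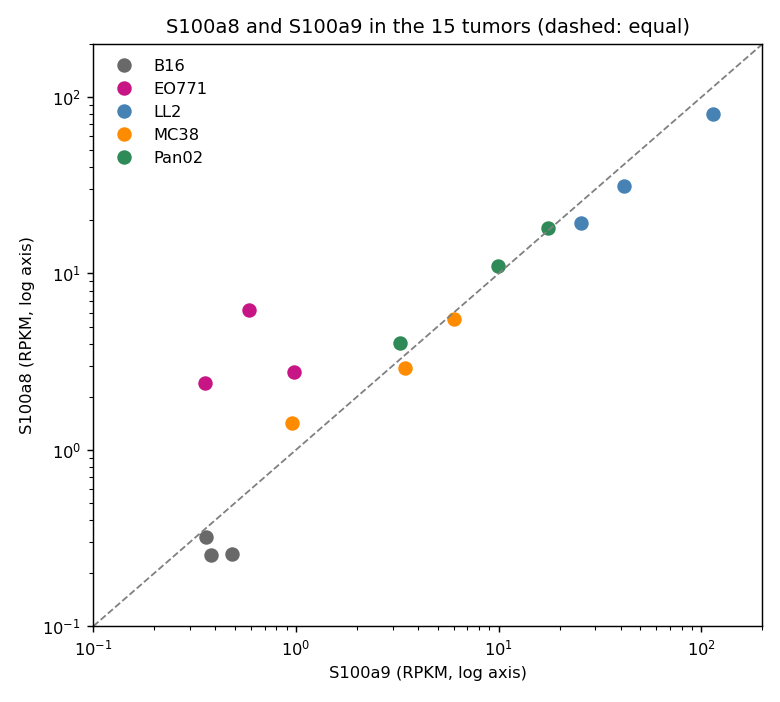
S100a8 against S100a9 in RPKM, both on log axes, 1 point per tumor, with a dashed line where both are equal. The 3 EO771 tumors lie above the line at ratios of 2.79 to 10.5, and the other 12 lie close to it at ratios of 0.536 to 1.48. B16 points rest on 1 or 2 counts of S100a8 and 2 to 5 counts of S100a9.

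Il1b separated B16 from the other 4 models and little else. It stood at 22.2, 75.1 and 45.4 CPM in LL2 and 15.7, 85.6 and 16.1 CPM in Pan02 tumors. It stood at 33.2, 11.9 and 23.8 CPM in MC38, 10.2, 19.7 and 37.9 CPM in EO771 and 1.13, 2.02 and 2.84 CPM in B16 tumors. All B16 tumors were below all others, and the other 4 models overlapped. LL2 was higher by 1.73 ± 0.49, adjusted p = 0.0118 and Pan02 by 1.37 ± 0.5, adjusted p = 0.0291 (log2), and each call rested on 1 tumor. Without LL2 replicate 2 the LL2 value was 1.24 with adjusted p = 0.121, and without Pan02 replicate 2 the Pan02 value was 0.07 with adjusted p = 0.915. With the replicate number as a block the Pan02 call was also lost, at adjusted p = 0.0636. Reads of Il1b and of its antisense neighbor Il1bos cannot be told apart where the 2 overlap, since the libraries were not stranded.

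**Figure D4:**
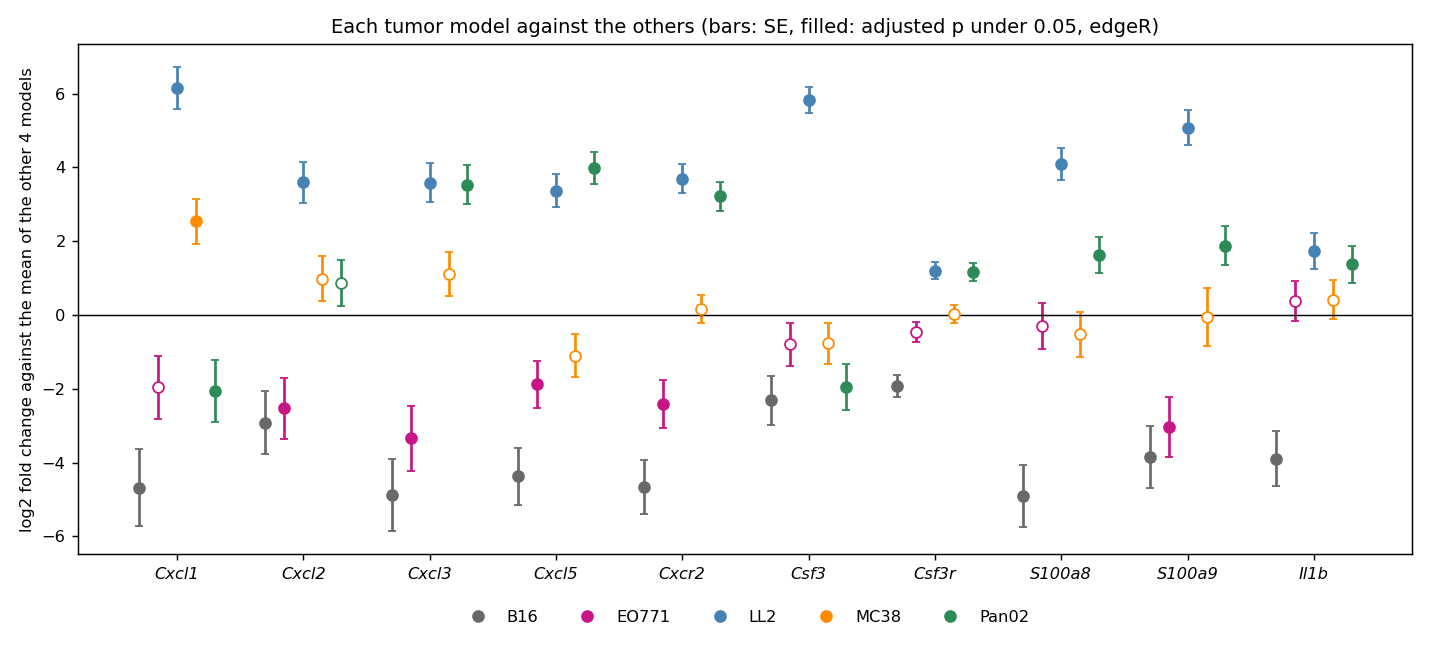
Log2 difference of each tumor model from the mean of the other 4 for the 10 genes, with SE as bars and filled points at an adjusted p under 0.05 (edgeR, 15 tumors). LL2 is filled and above 0 throughout, from 1.2 for Csf3r to 6.15 for Cxcl1, and B16 is filled and below 0 throughout. Csf3 passed the filter on low counts through LL2 tumors alone, so its points are not read as support.

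Markers of whole leukocytes moved with the B16 result. All 7 leukocyte markers and all 8 macrophage markers were lower in B16 than in the mean of the other models, and the leukocyte sum was 184 to 337 RPKM there against 429 to 1235 RPKM elsewhere. In LL2, 1 of 7 leukocyte and 0 of 8 macrophage markers were higher and none was lower. Other lists were partly higher in LL2 too. Of those tested, 3 of 3 platelet, 2 of 5 monocyte and 4 of 8 keratinocyte markers were higher there and none was lower. Of the fibroblast markers, 4 of 9 were higher and 1 was lower. Pan02 shared much of this, with 1 platelet, 2 monocyte, 4 keratinocyte and all 9 fibroblast markers higher and none lower. In MC38, 2 monocyte markers were higher and none was lower. Over all genes, 23.3% were higher in LL2, 32.5% in Pan02 and 27.0% in MC38. The keratinocyte markers summed to 3.67, 1.91 and 73.3 RPKM in the 3 LL2 tumors, so replicate 3 carried most of that sum. The part of these lists in the members' levels was not tested.

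Of 26 neutrophil markers, 17 passed the filter on low counts and 15 of these passed the F test, as did 91.1% of all genes. B16 had 15 of the 17 lower (31.6% of all genes). LL2 had 11 higher (23.3%) and 2 lower (18.9%), and Pan02 had 10 higher (32.5%) and 2 lower (28.1%). MC38 had 6 higher (27.0%). EO771 had 4 higher (27.2%) and 5 lower (27.0%), which is near those shares. Defining neutrophil genes differed in level. Ly6g, the surface marker of mouse neutrophils, reached at most 0.675 CPM, and the granule genes Mpo, Elane, Camp and Ngp reached at most 0.274 CPM. The granule genes Prtn3 and Mmp8 reached 6.74 CPM in an MC38 and 5.096 CPM in an LL2 tumor, and Mmp9, a gelatinase gene that macrophages express too, reached 139 CPM in an LL2 tumor. Retnlg, a secreted protein gene of mature neutrophils, reached 39.3 CPM in a Pan02 tumor. Clec4e, a receptor for microbial glycolipids on myeloid cells, was at 9.82 to 23.2 CPM in LL2 tumors and at most 7.56 CPM in the others. Trem1, an activating receptor of neutrophils and monocytes, was at 6.12 to 13.98 CPM in LL2 and at most 5.97 CPM in the others. Both rose in LL2, by 2.46 ± 0.32 (adjusted p = 4.55e-05) and 3.11 ± 0.33 (adjusted p = 6.53e-06) in the edgeR fit. Not all markers pointed to LL2. Padi4, which encodes a histone-citrullinating enzyme, was highest in EO771 at 136 to 162 CPM, and Prtn3, which encodes proteinase 3, was highest in MC38 at 3.899 to 6.74 CPM. Both were also measured in the sorted CAFs of these models, as given below, and their source in the tumors was not tested.

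A list of 42 further ligands, receptors, regulators and targets of the interleukin-1, interleukin-17, G-CSF and CXCR2 axis was read beside the 10 genes. Of these, 37 were tested and 35 passed the F test, as did 91.1% of all genes. LL2 had 19 higher (23.3% of all genes) and 3 lower (18.9%), and Pan02 18 higher (32.5%) and 2 lower (28.1%). EO771 had 7 higher (27.2%) and 6 lower (27.0%), and MC38 6 higher (27.0%) and 4 lower (24.4%). B16 had 2 higher (31.9%) and 27 lower (31.6%). The EO771 and MC38 counts lay below those shares. The median log2 difference was 0.58 in LL2, 0.76 in Pan02 and -1.68 in B16. Ppbp, which encodes a further CXCR2 ligand released by platelets, was at 2.598 to 30.8 CPM in LL2 and at most 2.17 CPM elsewhere. Il1r1, the signaling receptor for interleukin-1, was at 176 to 218 CPM in LL2 and at most 68.3 CPM elsewhere. Il23a, which encodes the p19 subunit of interleukin-23, was at 46.8 to 60.3 CPM in EO771 and at most 3.39 CPM elsewhere. In MC38 the inflammatory cytokine gene Tnf (5.68 to 6.498 CPM) and Casp1, whose enzyme matures interleukin-1 beta (64.3 to 74.5 CPM), lay above every other tumor. All 5 passed the test in their highest model, with adjusted p values of at most 0.002.

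Across the 15 tumors, the gene whose level ran most like Cxcl2 was Nfkbiz, an inducible regulator of NF-kB targets (Pearson r = 0.97 of log2 CPM + 1). The nearest to Cxcl1 was Enthd1 (r = 0.95), to Cxcl3 Gigyf1 (r = 0.95), to Cxcr2 Parp8 (r = 0.96), to Csf3 Ptprn2 (r = 0.99) and to S100a9 Tbx5 (r = 0.95). The nearest to Csf3r was Socs3 (r = 0.96), a feedback inhibitor induced by G-CSF and interleukin-6 signaling, and the nearest to Il1b was Junb (r = 0.94), an AP-1 subunit gene. Cxcl5 ran most like Gata6 (r = 0.97), which encodes a transcription factor, and S100a8 most like Vim (r = 0.96), which encodes vimentin. Among the 10 genes, Cxcl5 and Cxcr2 (r = 0.96) and S100a8 and S100a9 (r = 0.96) were the closest pairs, and Cxcl1 and Cxcl5 (r = 0.46) were the most distant. These values are descriptions over 15 tumors in 5 models, so points of 1 model share that model.

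In the CAF libraries Cxcl1 was at 25.4 RPKM or more in all 8, and neither receptor gene exceeded 0.279 RPKM in any. The filter of at least 1 RPKM in at least 2 libraries was passed by 7 of the 10 genes, and Cxcr2, Csf3r and S100a9 failed it. Il1b passed through EO771 alone, S100a8 through 1 library each of EO771 and MC38, and Csf3 through EO771 and 1 LL2 library. These 3 genes were chosen by the filter for being high there, so their levels are given without tests and nothing is read from the counts below, which include them. All 7 passed limma's F test on log2(RPKM + 1), as did 80.4% of the 13598 genes tested. Against the mean of the other 3 models, 5 of the 7 were higher in EO771 CAFs (24.5% of all genes) and none was lower (27.9%). MC38 CAFs had 6 lower (31.3%) and S100a8 higher (28.6%). Pan02 CAFs had 3 higher (27.1%) and 4 lower (26.5%), and LL2 CAFs had Cxcl1 higher (14.7%) and 4 lower (18.3%). For 5 of the 7 both libraries of 1 model lay above all others, against 67.0% of all genes. Differences on this scale understate the change of low genes.

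Cxcl1 was the leading ligand in CAFs of EO771, LL2 and MC38. It stood at 169 and 230.2 RPKM in EO771 and 260.4 and 131 RPKM in LL2 CAFs, against 30.5 and 53.3 RPKM in MC38 and 29.9 and 25.4 RPKM in Pan02 CAFs. EO771 and LL2 overlapped and were above the other 4 libraries. EO771 was higher by 1.72 ± 0.3, adjusted p = 0.0029 and LL2 by 1.59 ± 0.3, adjusted p = 0.00703 (log2, limma), and MC38 (-1.3 ± 0.3, adjusted p = 0.00759) and Pan02 (-2.01 ± 0.3, adjusted p = 0.00126) were lower. Without the first LL2 library the LL2 value was 1.09 with adjusted p = 0.0765.

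Cxcl2, Cxcl3 and Cxcl5 instead peaked in Pan02 CAFs. Cxcl2 was at 151 and 70.3 RPKM in Pan02, 20.99 and 25.3 RPKM in EO771, 10.4 and 3.42 RPKM in LL2 and 0.562 and 1.102 RPKM in MC38 CAFs. The 4 models did not overlap. Pan02 was higher by 3.95 ± 0.4, adjusted p = 1.86e-04 and MC38 lower, at -3.85 ± 0.4, adjusted p = 1.90e-04 (log2). MC38 libraries held 16 and 22 counting steps. The EO771 call (1.13 ± 0.4, adjusted p = 0.0454) and the LL2 call (-1.22 ± 0.4, adjusted p = 0.0494) lay at the threshold and were lost under several alternatives, at adjusted p up to 0.22 for EO771 and 0.409 for LL2, whose value ran from -1.91 to -0.54 without either LL2 library.

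Cxcl3 was at 30.6 and 36.02 RPKM in Pan02 CAFs, at 1.88 and 2.88 RPKM in EO771, 0.374 and 1.49 RPKM in MC38 and 0.786 and 0.411 RPKM in LL2 CAFs. Cxcl5 was at 94.9 and 61.9 RPKM in Pan02, 12.04 and 29.8 RPKM in EO771, 15.9 and 13.2 RPKM in LL2 and 3.39 and 2.45 RPKM in MC38 CAFs. Pan02 lay above all other libraries for both. Pan02 was higher by 3.997 ± 0.24, adjusted p = 1.70e-05 for Cxcl3 and by 2.87 ± 0.32, adjusted p = 3.02e-04 for Cxcl5 (log2). MC38 was lower for both, at -1.61 ± 0.24, adjusted p = 0.00101 and -2.89 ± 0.32, adjusted p = 2.51e-04, and LL2 for Cxcl3 only, at -1.91 ± 0.24, adjusted p = 0.00124, against -0.23 ± 0.32, adjusted p = 0.61 for Cxcl5. Pan02 CAFs had also the largest sum of epithelial markers, 836 and 1122 RPKM, and 4 of the 6 were higher there and none lower. They included Krt19 at 81.4 and 82.4 RPKM, against at most 15.9 RPKM elsewhere, and the epithelial cadherin gene Cdh1 at 10.5 and 14.1 RPKM, against at most 0.621 RPKM. The surface marker gene Epcam was at 0.764 and 2.08 RPKM in Pan02 CAFs and at 1.05 to 2.19 CPM in Pan02 tumors. Their part in the ligand levels was not tested.

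In CAFs, too, the Cxcl1 share was lowest in Pan02. Cxcl1 made up 79.9 to 82.9% of the summed ligand RPKM in EO771, 88.5 to 90.6% in LL2 and 87.6 to 91.3% in MC38 CAFs, and 9.75 to 13.1% in Pan02 CAFs. In Pan02 CAFs Cxcl2 held 36.3 to 49.3% and Cxcl5 30.95 to 31.97%. The sums were 204 and 288 RPKM in EO771, 288 and 148 RPKM in LL2, 307 and 194 RPKM in Pan02 and 34.9 and 58.3 RPKM in MC38 CAFs. MC38 was below every other library, and the other 3 models overlapped.

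Csf3 was measurable in CAFs and highest in EO771. It stood at 1.76 and 3.99 RPKM in EO771, 0.896 and 1.39 RPKM in LL2, 0.387 and 0.33 RPKM in Pan02 and 0.279 and 0.08 RPKM in MC38 CAFs, and no neighbors in this order overlapped. The libraries held 99 and 217 counting steps in EO771, 55 and 86 in LL2, 17 and 16 in Pan02 and 10 and 2 in MC38. The receptor Csf3r was at most 0.279 RPKM, in EO771, and Cxcr2 at most 0.044 RPKM in any CAF library.

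Il1b was above 0.1 RPKM in EO771 CAFs only. It was at 1.96 and 2.85 RPKM there, at 0.069 and 0.083 RPKM in Pan02, 0.033 and 0 RPKM in LL2 and 0 in both MC38 libraries. EO771 libraries held 109 and 153 counting steps and all others at most 4. Leukocyte and macrophage markers moved with it. All 8 macrophage markers and all 6 tested leukocyte markers were higher in EO771 CAFs, with macrophage sums of 152 and 195 RPKM against at most 23.9 RPKM elsewhere. Their part in the Il1b level was not tested.

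S100a8 stayed below 2 RPKM in CAFs and S100a9 near 0. S100a8 was at 0.935 and 1.61 RPKM in EO771 and 1.56 and 0.697 RPKM in MC38 CAFs, and at 0.114 and 0.057 RPKM in LL2 and 0 and 0.144 RPKM in Pan02 CAFs. S100a9 was listed at 0 in all 4 EO771 and MC38 libraries and in 1 LL2 library, and reached 0.271 RPKM in Pan02. S100a8 was thus present without S100a9 in EO771 and MC38 CAFs, from 15 and 25 counting steps of S100a8 in EO771 and 16 and 5 in MC38. The keratinocyte markers summed to 69.3 and 76.2 RPKM in EO771 CAFs and to at most 3.84 RPKM in MC38 CAFs, and their part in S100a8 was not tested. Of the 5 tested, 3 were higher and 1 was lower in EO771 CAFs. LL2 and Pan02 CAFs held at most 2 steps per library.

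Of the same 42 axis genes, 35 were tested in CAFs and 32 passed the F test, as did 80.4% of all genes. EO771 had 17 higher (24.5% of all genes) and 6 lower (27.9%), and MC38 4 higher (28.6%) and 22 lower (31.3%). Pan02 had 11 higher (27.1%) and 11 lower (26.5%), and LL2 4 higher (14.7%) and 7 lower (18.3%). The Pan02 and LL2 counts lay near those shares. Il23a was again highest in EO771, at 31.8 and 32.1 RPKM against at most 0.811 RPKM. Il6, the cytokine of the acute-phase response, was at 7.18 and 16.5 RPKM in EO771 and at most 4.97 RPKM elsewhere. In Pan02 CAFs Il1rn, the antagonist of interleukin-1, reached 7.91 and 11.3 RPKM, Il18, a cytokine of the interleukin-1 family, 9.94 and 10.7 RPKM, and the chemokine gene Cxcl15 1.69 and 4.47 RPKM, all above every other CAF library. Of the 26 neutrophil markers 7 passed the filter. In EO771 CAFs 4 were higher (24.5% of all genes) and 0 lower (27.9%), and in MC38 CAFs 4 higher (28.6%) and 1 lower (31.3%). In LL2 CAFs 0 were higher (14.7%) and 5 lower (18.3%), and in Pan02 CAFs 0 higher (27.1%) and 4 lower (26.5%). They included Itgam, the integrin subunit CD11b, at 2.08 and 2.16 RPKM in EO771 and at most 0.409 RPKM elsewhere. The granule protein gene Prtn3 was at 12.97 and 13.1 RPKM in MC38 CAFs, against at most 2.88 RPKM elsewhere. Padi4 was at 42.6 and 43.96 RPKM in EO771 CAFs and at most 27.45 RPKM elsewhere, whereas Ly6g reached at most 0.313 RPKM in any CAF library.

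Tumors and CAFs were then set side by side on the per-length scale, where the ligands and Csf3 held all pairs with higher CAFs. The tables were normalized separately, and the samples were handled differently before RNA isolation. By the paper's methods, tumor fragments for RNA went into RNAlater. CAFs instead passed through overnight enzyme digestion, warming, bead depletion of leukocytes and cell sorting before lysis. The tumor and CAF values were therefore set side by side without a test, and the part of this handling in their differences was not tested. Over 4 models and 10 genes, both CAF libraries lay above all 3 tumors in 9 of 40 pairs of a gene and a model, against 17.4% over all genes, and all tumors lay above both CAF libraries in 24, against 38.7%. The 9 were Cxcl1, Cxcl2, Cxcl3, Cxcl5 and Csf3 in EO771 and Cxcl1, Cxcl2, Cxcl5 and Csf3 in Pan02. In Pan02 the fibroblast markers lay the other way, at 2386 and 3880 RPKM in CAFs and 8166 to 9086 RPKM in tumors. The part of this in the Pan02 pairs was not tested. Cxcr2, Csf3r, S100a9 and Il1b were higher in the tumors of all 4 models. S100a8 was higher in the tumors of 3 models and overlapped in MC38.

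**Figure D5:**
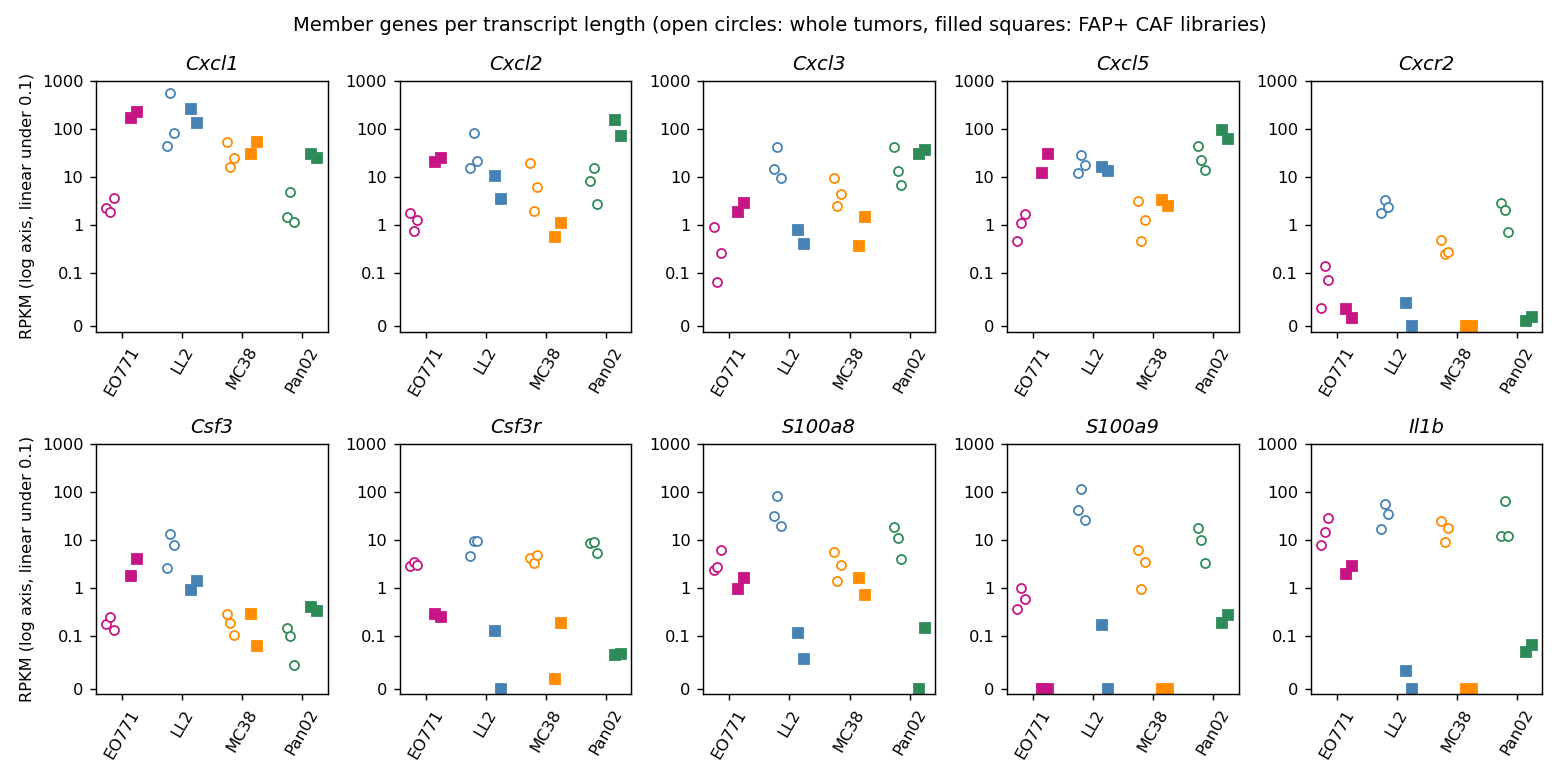
RPKM (log axis, linear under 0.1) of each gene in whole tumors as open circles and in CAF libraries as filled squares, by model. Squares lie above circles for all 4 ligands in EO771 and below them for Cxcr2, Csf3r, S100a9 and Il1b in every model.

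Of the 9 pairs with higher CAFs, Cxcl1 in EO771 had the largest ratio. Cxcl1 had a mean of 199.8 RPKM in EO771 CAFs and 2.596 RPKM in EO771 tumors, a ratio of 76.96. Cxcl5 was 19.2 times and Csf3 15.6 times as high in the CAFs. The epithelial markers summed to 494 and 501 RPKM in EO771 CAFs and 672 to 706 RPKM in EO771 tumors. Krt8 alone was at 491.8 to 495 RPKM in these CAFs. Of the 6 markers, 1 was higher and 4 were lower in EO771 CAFs than in the other CAFs. Their part in these ratios was not tested. In Pan02 the ratio was 12.5 for Cxcl2 and 11.01 for Cxcl1, while Cxcl3 overlapped. In LL2 the direction was the other way for Cxcl2, Cxcl3 and Csf3, with tumor means 5.79, 36.5 and 6.82 times those of the CAFs, and Cxcl1 and Cxcl5 overlapped. In MC38 tumors Cxcl2 was 11.3 times and Cxcl3 5.87 times as high as in MC38 CAFs. Within each table, 5 of the 7 genes tested in both had some pair of models ordered one way in every tumor and the opposite way in every CAF library, against 33.1% of the 13208 genes tested in both. Csf3 and S100a8 are among the 5, and the filters had chosen both for being high in some models. Setting the tumor RPKM by total counts left the side of the higher mean as it was in all 40 pairs.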

How the data were processed

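RNA of 15 whole tumors and 8 libraries of sorted CAFs was sequenced as unstranded, polyA-selected libraries. The authors mapped the reads to mm10 with STAR (2.5.0c in the submitters' processing notes), built the count matrix with HOMER and tested it with DESeq2. The deposited tumor table holds estimated counts per RefSeq transcript in steps of 0.5, with unequal sums, and was read as not normalized. The deposited CAF table holds RPKM computed by the authors, with 3 decimals. The titles of the 3 Pan02 tumors read Pan01, and the cell line field, which reads Pan02, was used. CAF columns name the model and not the sample. A further 5 columns of per-sample values were not used here.

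Per symbol the transcript with the largest mean was kept (S100a9 by NM_001281852 in tumors and NM_009114 in CAFs). Tumor counts, rounded to whole numbers (0.5 upwards), were fitted with edgeR 4.0.16 (TMM, filterByExpr, quasi-likelihood F tests across models, and 1 contrast per model with the others averaged), and p-values were adjusted by Benjamini-Hochberg over all genes tested. CAF values were fitted with limma 3.58.1 as log2(RPKM + 1) with a variance trend, for genes of at least 1 RPKM in at least 2 libraries. Calls were made at an adjusted p under 0.05. Counting steps were recovered from the CAF values (100% whole within 0.15), and a step may be less than 1 read. Depth limits precision, and a fitted difference that rests on 3 or fewer counts per library depends on the prior count and is no bound. Alternatives were DESeq2 1.42.0, total-count scaling, no filter, another transcript choice, doubled counts, a replicate block, another pseudocount, median-of-ratios scaling and omission of each library. The count fit of recovered CAF steps (edgeR) was added after the data were seen. Scripts were tested on simulated data. From the lists, genes were named whose highest model had all its libraries above all others, at most 5 per list and table, by their fold over the next model and past the F test, plus genes whose role bears on a member. Krt19, Cdh1, Mmp8 and Mmp9 were named after their values were seen. For likeness, the tested gene with the highest Pearson r over the 15 tumors is given for each member. The members and all lists were chosen with earlier results of these data known.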

Additional observations from a re-analysis of the deposited data

Results flagged for a closer look

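For 5 of the 7 genes tested in both tables, some pair of models was ordered one way in every tumor and the opposite way in every CAF library, as it was for 33.1% of all genes tested in both. These orders were found by looking through all pairs of the 4 models, and the difference between tumors and CAFs was not tested. Csf3 and S100a8 are among the 5. Csf3 passed the tumor filter through LL2 alone and the CAF filter through EO771 and 1 LL2 library. S100a8 passed the CAF filter through 1 library each of EO771 and MC38. The filters thus favored their orders, and their values are given below without being read as support. Cxcl1 was 12.02 times as high in MC38 as in EO771 tumors (mean CPM), and 4.77 times as high in EO771 as in MC38 CAFs (mean RPKM). Cxcl2 was 31.0 times as high in LL2 as in EO771 tumors and 3.36 times as high in EO771 as in LL2 CAFs. Cxcl2 was also 7.29 times as high in MC38 as in EO771 tumors and 27.8 times as high in EO771 as in MC38 CAFs. Cxcl3 showed the same 2 pairs, with LL2 tumors at 53.2 times and MC38 tumors at 13.4 times the EO771 tumors, from 17, 1 and 3 counts in EO771 tumors, and EO771 CAFs at 3.98 times the LL2 and 2.55 times the MC38 CAFs. For Csf3 LL2 tumors were at 42.1 times EO771 tumors, which held 4.5, 4 and 2 counts, and EO771 CAFs at 2.52 times LL2 CAFs. S100a8 was 11.5 times as high in LL2 as in EO771 tumors and 13.2 times as high as in MC38 tumors, while LL2 CAFs held 1 or 2 counting steps of it and every EO771 and MC38 CAF library held at least 0.935 and 0.697 RPKM. EO771 CAF libraries carried macrophage markers at 152 to 195 RPKM in sum, above the other CAFs. Their epithelial markers, mostly Krt8, summed to 494 and 501 RPKM, above LL2 and MC38 CAFs and below Pan02 CAFs. The part of both lists in these orders was not tested.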

How the results depend on the processing

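The counts of genes called in each comparison kept within 1.5 times of the reported count in 59 recomputations that kept all libraries, with 3 exceptions. These were the CAF calls in LL2, 5 of 7 as reported and 3 without the filter on low values or 2 with edgeR on recovered counts, and in Pan02, 7 as reported and 4 with edgeR on recovered counts. Leaving out single libraries gave 10 to 10 calls for the tumor F test and for B16, 3 to 6 for EO771, 9 to 10 for LL2, 1 to 2 for MC38 and 6 to 9 for Pan02. In CAFs it gave 5 to 7 calls for the F test, 2 to 5 for EO771, 2 to 4 for LL2, 5 to 7 for MC38 and 4 to 7 for Pan02, where a lone remaining library was assumed to vary like the other groups. Among tumors the count moved by over 1.5 times without EO771 replicate 2 (3 in EO771) and without MC38 or Pan02 replicate 1 (2 in MC38). Among CAFs it did so for EO771 without the first or second EO771 library (3 and 2), for LL2 without the first EO771 or first Pan02 library (3 each) and without the second EO771 or either LL2 library (2 each), and for Pan02 without the second EO771 or either Pan02 library (4 each). The cause was not tested. The tumor counts include Csf3, which passed the filter through LL2 tumors alone. The CAF counts include Csf3, Il1b and S100a8, which the filter had chosen for high values in EO771 or MC38. Of the single genes, CAF Il1b in Pan02, called at -0.49, turned to 0.51 with edgeR on recovered counts, where it has at most 4 steps per library. The other changes of sign were in values not past the threshold. S100a9 in MC38 tumors was 0.082 with total-count scaling. When single libraries were left out, MC38 tumors ran -0.24 to 1.47 for Cxcl2, -0.26 to 0.35 for Cxcr2, -0.15 to 0.16 for Csf3r and -0.77 to 0.39 for S100a9, EO771 tumors -0.22 to 0.74 for Il1b and EO771 CAFs -0.36 to 0.88 for Cxcl5 (log2). Of 30 pairs of tumors with the same replicate number 9 had deviations correlated above 0.1, so the numbers were not taken to pair the tumors. With the replicate block the tumor counts were 10 for the F test, B16 and LL2, 5 for EO771, 1 for MC38 and 8 for Pan02, against 9 without it. Deviations of 8 of 15 tumors correlated best with those of their own number. No paired analysis was possible in CAFs because their columns carry no replicate number. Genes with a few counts, among them S100a8, S100a9 and Cxcr2 in B16 tumors and S100a8 and S100a9 in CAFs, have levels that depth limits most.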
